A study of Caenorhabditis elegans with 2 samples.

Results

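The regions described here are those of 2 stretches of Caenorhabditis elegans chromosome IV in which genes for 21U RNAs lie densely packed. They were taken from the joint ranking of a chromatin immunoprecipitation experiment as every ranked region whose summit lay at chrIV:4500001-7000000 (the left domain) or chrIV:13500001-17200000 (the right domain) of the ce11 build. The choice used position alone and no measured value. There were 5219 such regions, 2399 in the left domain and 2820 in the right, of 18430 on chromosome IV and 118176 in all. The other 13211 regions of the chromosome, called the rest of IV, served for comparison.

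The animals were of strain OP719, which carries the transgene wgIs719 with tag-97 fused to TY1, EGFP and 3xFLAG tags on a fosmid clone, together with unc-119(+), in an unc-119 (tm4063) background. Whole L4 larvae aged 66 hours were collected after arrest as starved L1 larvae following bleaching, and an antibody against GFP was used. The insertion is said to target svh-5. Only 1 strain was used, so both biological replicates share 1 integrated transgene. There was 1 group of 2 biological replicates, an untagged or input sample was not analysed here, and nothing below compares conditions. In whole animals, binding in few cells and weak binding in many cells cannot be told apart.

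21U RNAs are the Piwi-interacting RNAs of this nematode. Each is transcribed from its own very short gene, usually with an upstream motif whose core reads GTTTCA, by a machinery that includes PRDE-1 and SNPC-4, and the trimmed product is bound by the Piwi protein PRG-1. In the germline these RNAs mark foreign and transposon transcripts for silencing. Their genes are spread among ordinary coding genes, often inside introns, so a domain of this kind is a mixture of 21ur genes, coding genes and pseudogenes.

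The gene models placed 14204 of all 15363 annotated 21ur genes (92.5%) in the domains, 2816 in the left and 11388 in the right, which gives 2291 per Mb against 45.16 per Mb on the rest of IV. The domains, 6.2 Mb in all, also held 941 coding genes, 175 pseudogenes and 430 other noncoding genes. Every 21ur gene of the domains was annotated as 21 bases long, and 96.2% began with T, the DNA form of the 5′ uridine. The full motif CTGTTTCA lay within 60 bases upstream of 4952 of them (34.9%), most often 38 bp before the first base (1680 genes). The shorter core GTTTCA ended 36 to 40 bp upstream in 8265 (58.2%). The 5 loci below belong to the strongest ranked regions within 100 bp of a 21ur gene, and the last 2 were chosen, among the genes nearest to the 5 strongest regions with the full motif, because they carry that motif themselves. Of the other genes nearest to those regions, 21ur-6244 has neither core nor motif upstream, and 21ur-1968 the core alone. Each line shows 60 bases upstream and the 21 bases of the RNA, read on the strand of the gene, and capitals mark the core or the full motif.
21ur-2814 (chrIV:16167578-16167658, plus strand): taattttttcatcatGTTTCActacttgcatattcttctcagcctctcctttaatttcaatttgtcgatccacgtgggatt
21ur-2168 (chrIV:15220415-15220495, minus strand): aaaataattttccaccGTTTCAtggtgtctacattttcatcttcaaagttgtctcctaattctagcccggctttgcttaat
21ur-7980 (chrIV:6432642-6432722, plus strand): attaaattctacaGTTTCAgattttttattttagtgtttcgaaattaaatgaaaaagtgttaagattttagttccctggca
21ur-4838 (chrIV:15949163-15949243, plus strand): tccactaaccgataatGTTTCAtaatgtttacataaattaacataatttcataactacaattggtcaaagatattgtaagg
21ur-1106 (chrIV:5852442-5852522, plus strand): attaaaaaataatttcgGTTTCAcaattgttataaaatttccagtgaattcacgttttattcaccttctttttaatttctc
21ur-5382 (chrIV:14937116-14937196, plus strand): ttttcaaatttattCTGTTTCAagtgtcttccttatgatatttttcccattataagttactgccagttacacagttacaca
21ur-9980 (chrIV:16974794-16974874, plus strand): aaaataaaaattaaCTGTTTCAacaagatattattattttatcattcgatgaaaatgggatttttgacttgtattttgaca

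In the first 5 loci the core stood alone, without the full motif, and ended 37 to 41 bp before the RNA. In 21ur-5382 and 21ur-9980 the full motif ended 38 bp before it. Between the core and the RNA, GC made up 15.8 to 35.9% of the bases, with 21ur-4838 lowest and 21ur-2814 highest. GC content was low over the domains as a whole, at 33.0% of their bases (34.0% in the left domain, 32.3% in the right) against 35.5% on the rest of IV. Within 100 bp of a 21ur gene it was 28.3%, against 35.1% in other bases of the domains.

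Signal, the value the authors' peak calling gave each region on a scale that the sources do not state, was close to that of the rest of the chromosome. Its median was 18.35 in the domains, with quartiles of 11.48 and 25.81, and 18.38 on the rest of IV, with quartiles of 11.52 and 26.02. The left domain had a median of 18.08, the right 18.63 and the other chromosomes 18.68. The ratio of medians, domains over the rest of IV, was 0.9983. In the replicates the regions matched to a replicate's own list had medians of 11.8 (n = 2975) in the domains and 11.72 (n = 8119) on the rest of IV in replicate 1, and of 14.68 (n = 2371) in the domains and 14.75 (n = 6538) on the rest of IV in replicate 2. The replicate ratios of 1.007 and 0.9949 averaged 1.001 ± 0.00834 (SD, n = 2) and fell on opposite sides of 1. A difference between the domains and the rest of IV was thus not larger than the spread between replicates. Regions share their libraries and are not replicates, so no test was made over them. Values on either side of the 4 bounds varied widely: the nearest regions inside had signals of 45.27, 32.37, 2.501 and 36.98, and the nearest outside 19.03, 11.13, 6.696 and 4.766, in order along the chromosome.

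What differed was how many regions there were. There were 841.8 ranked regions per Mb in the domains and 1170 on the rest of IV, and the other chromosomes ranged between 1169 and 1245. The right domain, with 3078 21ur genes per Mb, had 762.2 regions per Mb, and the left, with 1126 21ur genes per Mb, had 959.6. In the own ranking of replicate 1 there were 639.2 per Mb in the domains and 817.8 on the rest of IV, and in that of replicate 2 there were 473.5 in the domains and 678.5 on the rest of IV. The ratio of densities was 0.7195 in the joint ranking and 0.7395 ± 0.0593 over the replicates (SD, n = 2), so both replicates had fewer regions in the domains.

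Density was also set against the 21ur genes in bins of 100 kb. Over the 62 bins of the domains, the number of 21ur genes had a Spearman correlation of -0.525 with the number of regions, -0.233 over the 25 bins of the left domain and -0.466 over the 37 of the right. It was -0.489 over the 112 bins of the rest of IV, where the median bin holds 2 21ur genes, so the relation was not particular to the domains. GC content had a correlation of 0.684 with the number of regions in the domains and 0.517 on the rest of IV. With median signal GC content had one of only 0.0531 in the domains (0.373 in the left, 0.102 in the right) and 0.345 on the rest of IV. With median signal the number of 21ur genes had one of 0.039 over both domains, but of -0.519 in the left domain and -0.111 in the right. These are descriptions over neighbouring bins of the same libraries. The bin with the most 21ur genes, 486 of them, held 51 regions with a median signal of 18.54, close to the median over the domains. The bin of highest median signal, 22.65, held 402 21ur genes and 44 regions. At the low end a bin with 175 21ur genes had 108 regions and a median of 15.16. In the plot of the bins, regions are fewer in bins rich in 21ur genes, while signal has no common trend over both domains.

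**Figure D1:**
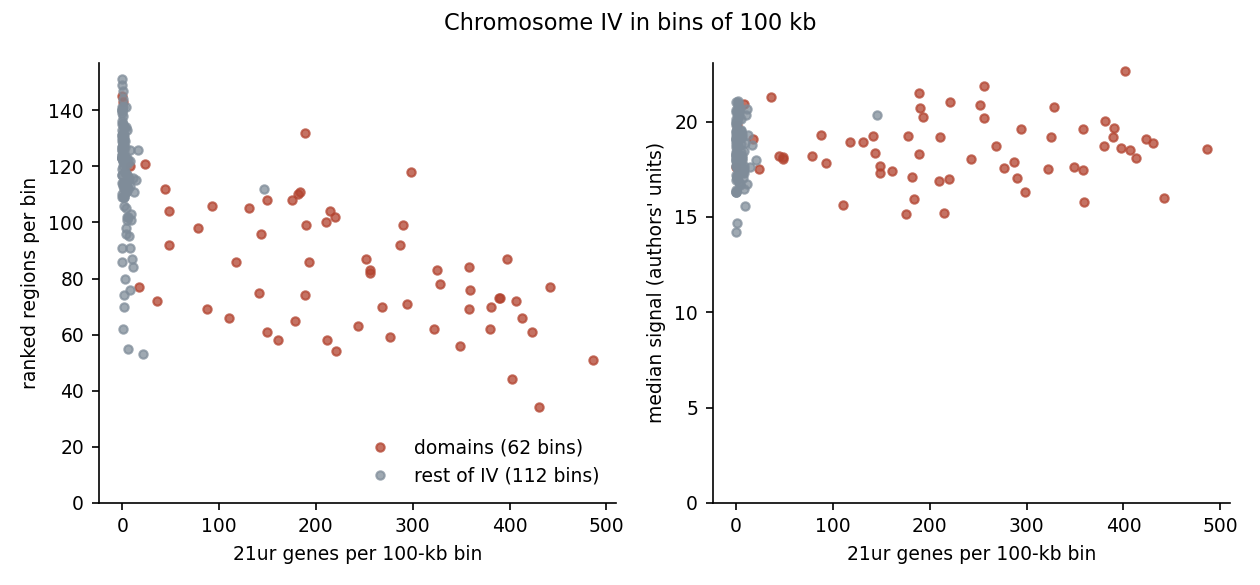
Each point is a bin of 100 kb of chromosome IV, with the number of annotated 21ur genes on the x axes. The y axes give the number of ranked regions (left) and their median signal in the authors' units (right), for the 62 bins of the domains and the 112 of the rest of IV. Domain bins held 34 to 145 regions, against 53 to 151 on the rest of IV, and their medians ran between 15.16 and 22.65, against 14.2 to 21.06.

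Read base by base, the thinning was deepest at the 21ur genes themselves. There were 495.5 summits per Mb in the 100 bp upstream of the nearest 21ur 5′ end and 505.6 per Mb in the 100 bp downstream. Between 200 and 300 bp away there were 902.6 per Mb upstream and 995.2 downstream, and beyond 1000 bp 1158 per Mb, close to the density on the rest of IV. The bases of the nearest upstream bin had 26.3% GC and those beyond 1000 bp 36.7%. Median signal was 16.8 and 16.6 in the nearest bins on either side and 18.92 beyond 1000 bp.

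**Figure D2:**
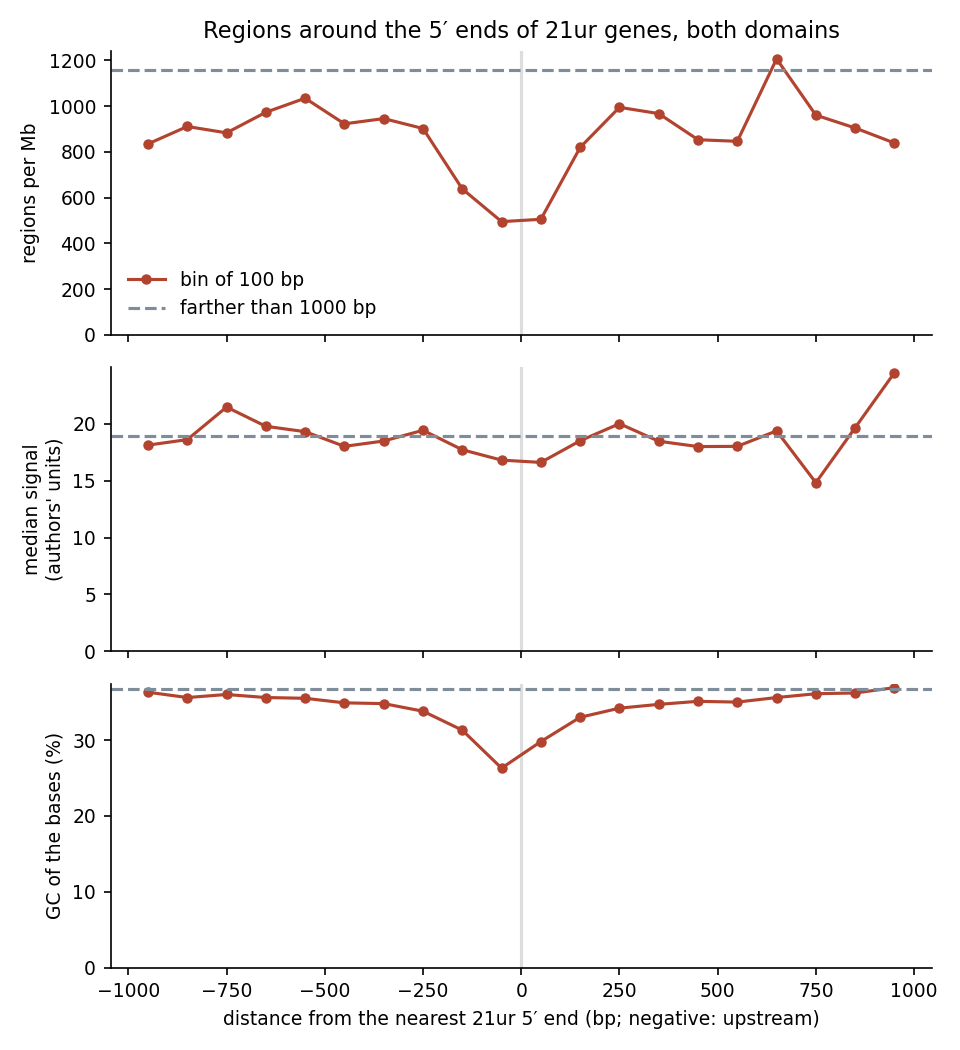
The 3 panels share an x axis of distance from the nearest 21ur 5′ end in bp, negative upstream, in bins of 100 bp over both domains. They show ranked summits per Mb, their median signal in the authors' units and the GC content of the bases, and the dashed line is the value beyond 1000 bp. Density, GC content and signal all dip within 100 bp of the 5′ end, and the outer bins, some with as few as 30 regions, scatter.

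Read by region for signal and by window for density, GC content moved with both measures, in the domains and on the rest of IV. Among members of the domains, median signal was 12.03 in regions of 20 to 25% GC and 24.38 in regions of 50 to 55%, and on the rest of IV it was 13.9 and 24.75. When the rest of IV was given the GC makeup of the domains, in steps of 5 percentage points, the signal ratio became 1.023. In settings added after the data were seen, the matched ratio was 1.042 in the right domain and 1.005 in the left. By replicate it was 1.02 in replicate 1 and 0.9999 in replicate 2, so the rise was not seen in both. Density was compared in the same way over windows of 300 bp, a comparison added after the data were seen. Windows of 20 to 25% GC held 298.7 regions per Mb in the domains and 504.5 on the rest of IV, and those of 40 to 45% GC held 1440 in the domains and 1575 on the rest of IV. At equal GC content the ratio of densities was 0.8147, and it was 0.8875 in replicate 1 and 0.8087 in replicate 2 (mean 0.8481 ± 0.0557, SD, n = 2). The lower density of the domains was thus smaller, but still present in both replicates, once GC content was matched.

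The same comparison was made inside the domains, between windows at 21ur genes and other windows. Windows within 100 bp of a 21ur gene held 547.9 regions per Mb and the others 978.2, a ratio of 0.5602 (0.585 and 0.514 in replicates 1 and 2). With GC content matched it was 0.8674 (0.9123 and 0.856 in the replicates), so the gap was much smaller at equal GC content and lay on the same side in each replicate. The part of GC content in these differences was not tested beyond this matching.

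**Figure D3:**
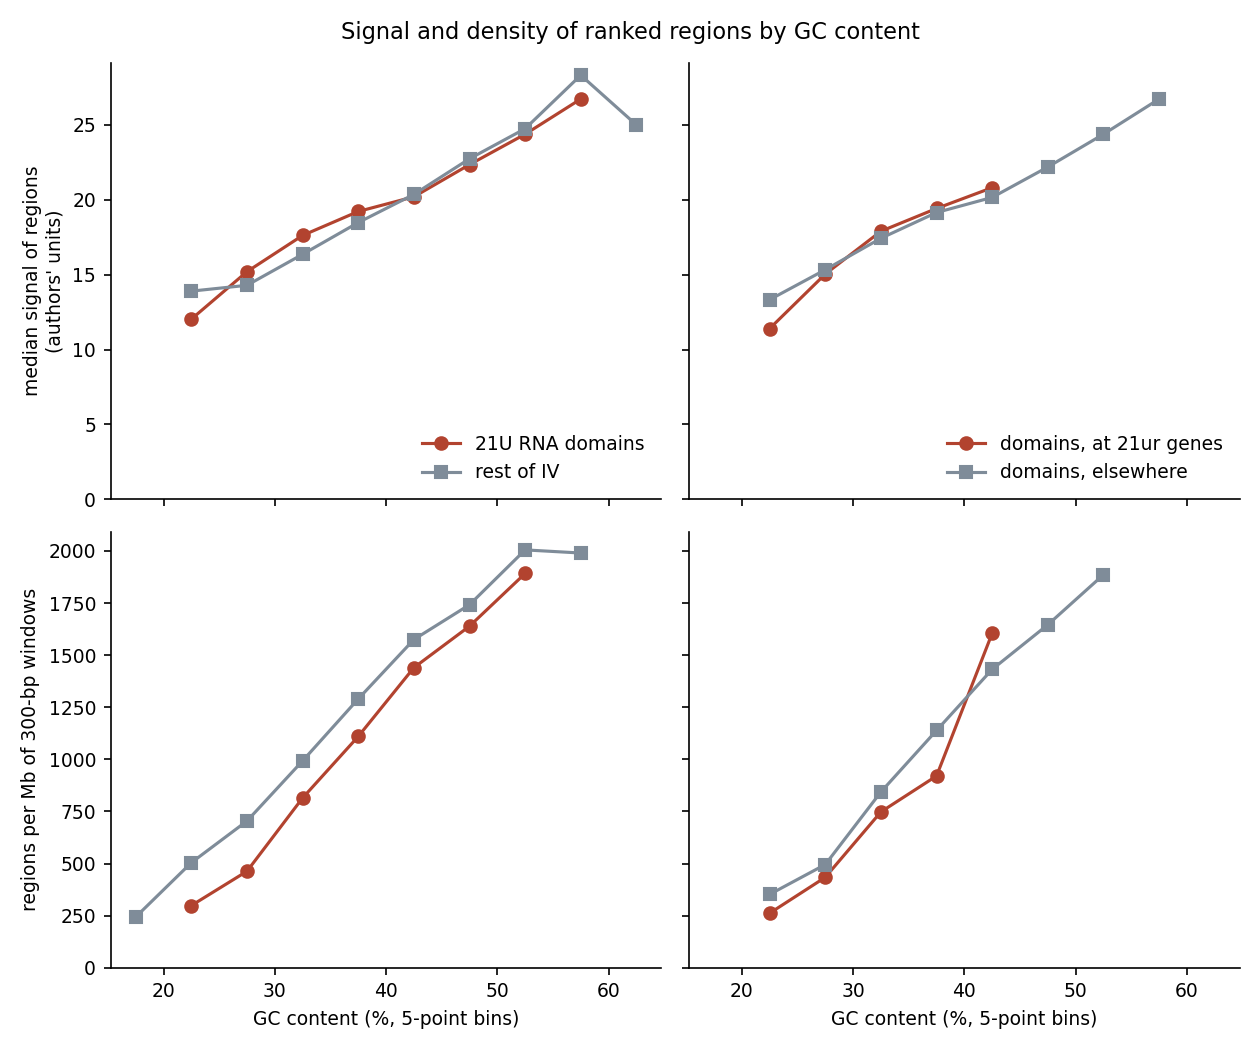
The x axes give GC content in bins of 5 percentage points. The upper panels show the median signal of ranked regions in the authors' units (bins with 20 or more regions), the lower ones regions per Mb over windows of 300 bp (100 or more windows), for the domains and the rest of IV on the left and for places at 21ur genes and elsewhere in the domains on the right. Signal and density both climb with GC content over most of the range. The signal curves lie near each other, least so at 20 to 25% GC. Medians there were 12.03 in the domains and 13.9 on the rest of IV, and 11.4 at 21ur genes and 13.33 elsewhere. The domains lie below the rest of IV in density in every GC bin plotted for both. Density is lower at 21ur genes than elsewhere up to 40% GC and higher at 40 to 45% (1605 against 1432).

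At 21ur genes, meaning a summit within 100 bp of one, there were 1019 regions, 19.5% of the members, in 31.9% of the bases of the domains. The shares were 12.3% of regions in 18.4% of the bases in the left domain, and 25.7% in 41% in the right. In the replicates' own rankings 20.3% and 18.9% of the domains' regions were at 21ur genes. Only 96 summits (1.84%) fell inside a 21ur gene, in 3.75% of the bases. Seen from the genes, 1549 of 14204 (10.9%) had a summit within 100 bp. The median distance between a member's summit and the nearest 21ur gene was 503 bp.

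Median signal at 21ur genes was 16.82, against 18.9 in the other members, a ratio of 0.8899. The ratio was 0.924 in replicate 1 and 0.9507 in replicate 2, on average 0.9373 ± 0.0188 (SD, n = 2). The regions at 21ur genes had a median GC content of 30.6% and the others 37.5%, and with GC content matched the ratio was 1.015. The lower signal was therefore seen in both replicates and was not present in the matched ratio, which was read in the joint ranking alone. By GC bin it remained at 20 to 25% GC, with medians of 11.4 at 21ur genes (n = 90) and 13.33 elsewhere. At 25 to 30% the medians were 15.04 (n = 391) and 15.33. From 30% GC upward the medians at 21ur genes were the higher. Without GC matching, signal was lower both beside other genes and away from them. Where a coding gene was also at the summit the medians were 17.03 at 21ur genes (n = 556) and 19.05 elsewhere (n = 3030). Where no other gene was, they were 16.5 at 21ur genes (n = 401) and 18.49 elsewhere (n = 793). GC content differed in these groups too, with medians of 31.9% and 37.9% beside coding genes and of 28.9% and 34.9% where no other gene was.

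The strongest regions at 21ur genes were modest. That 43 bp from 21ur-2814, in a stretch without other genes, had a signal of 49.59, with 20.6 in replicate 1 and 21.74 in replicate 2. The one 58 bp from 21ur-2168, which is also 4 bp upstream of Y40H7A.11, a gene for a LITAF domain protein, had 48.8 (16.35 and 20.4). That at 21ur-7980 had 48.0 (24.32 and 31.72), that at 21ur-4838 had 44.92 (28.96 and 18.69), and that at 21ur-1106, in a coding exon of the SH2 domain gene C06E7.4, had 44.65 (16.34 and 19.53). In 4 of these 5 the value of replicate 2 was the higher, and their irreproducible discovery rate (IDR), low where a region keeps its rank between inputs, lay between 0.0784 and 0.347. The 90th percentile of signal was 29.68 at 21ur genes and 34.49 in the other members, whose maximum was 302, with GC content not matched.

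The share of regions with the motif was below its share of windows, with GC content not matched. CTGTTTCA, sought on both strands within 150 bp of the summit, was present at 714 members (13.7%, exact 95% interval 12.8 to 14.6%), while 21% of all windows of that length in the domains hold it. In the left domain it was in 10% of regions and 14.6% of windows, in the right in 16.8% and 25.4%. On the rest of IV 265 regions had it (2.01%, against 2.31% of windows), and 1.66% of regions on the other chromosomes. It occurred 4938 times in the domains, 796 per Mb, and 924 times on the rest of IV, 81.8 per Mb. Regions with the motif had a median signal of 17.39 and a median GC content of 31.2%, against 18.52 and 36.9% without it. The core GTTTCA, part of the full motif and common by its length, was at 40.7% of members and 26.5% of regions on the rest of IV. A match here is only a stretch of letters, and the intervals cover counting error alone.

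The strongest region with the motif lay in an intron of ZK616.1, which encodes a protein with an RNA recognition motif domain, with a signal of 50.54 (15.91 and 19.72 in replicates 1 and 2). The region 43 bp from 21ur-2814 came next. A region in a coding exon of tag-273 had 48.39 and no match in the own list of either replicate. The one in an exon of linc-121, near 21ur-5382, had 46.28 and was matched only in replicate 2, at 23.94. The one 173 bp upstream of the pseudogene WBGene00077754, near 21ur-9980, had 43.24 and no match in either.

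Some regions passed the authors' threshold. Those that the authors kept in their joint thresholded list, called listed here, numbered 18 in the domains, 10 in the left and 8 in the right. That was 0.345% of members (exact 95% interval 0.205 to 0.545%), against 18 on the rest of IV (0.136%). The interval takes regions as independent and covers counting error alone, so it is no test of a difference. With those within 30 kb joined, the listed regions formed 13 loci in the domains and 15 on the rest of IV. The share of regions listed was 0.193% on the autosomes other than IV and 0.272% over the whole ranking, chromosome X included. Per Mb, the domains had 2.9 listed regions and the rest of IV 1.59. In the conservative list, made by ranking the replicates against each other, there were 9 members and 12 regions of the rest of IV, and 0.154% of the whole ranking was in it. The lists of the replicates alone had 5 members of 70 regions (replicate 1) and 7 of 71 (replicate 2), against 6 and 4 on the rest of IV. The count thus fell by more than 1.5 times with either replicate alone or in the conservative list. These lists were shorter as a whole, with 182 regions in the conservative list against 321 in the joint list. The fall therefore describes the lists and not the domains.

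The 18 listed regions formed 13 loci when those within 30 kb were joined, since 4 lay within 29.4 kb in the left domain and 3 at fkh-7. Joint signal lay between 32.1 and 225.9 with a median of 77.8, and median GC content was 42.7%. The lowest, at fkh-7, was below the 90th percentile of all members (33.63), so not every listed region was of high signal. In replicate 1 their values ran between 2.542 and 124.5 with a median of 31.71, and in replicate 2 between 13.56 and 104.1 with a median of 40.95. Replicate 2 was the higher in 12 of the 18, and its general level was higher too, as given above. None of them was at a 21ur gene and none had CTGTTTCA within 150 bp, against 19.5% and 13.7% of all members. GC content was not matched here, and its median was 30.6% in members at 21ur genes and 31.2% in those with the motif. These counts of 0 allow shares of up to 16.7% of the 18, and up to 0.294% of the 1019 regions at 21ur genes. Their nearest 21ur gene was between 116 and 17637 bp away, with a median of 1728 bp, and 5 of the 18 lay within 500 bp of one.

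**Figure D4:**
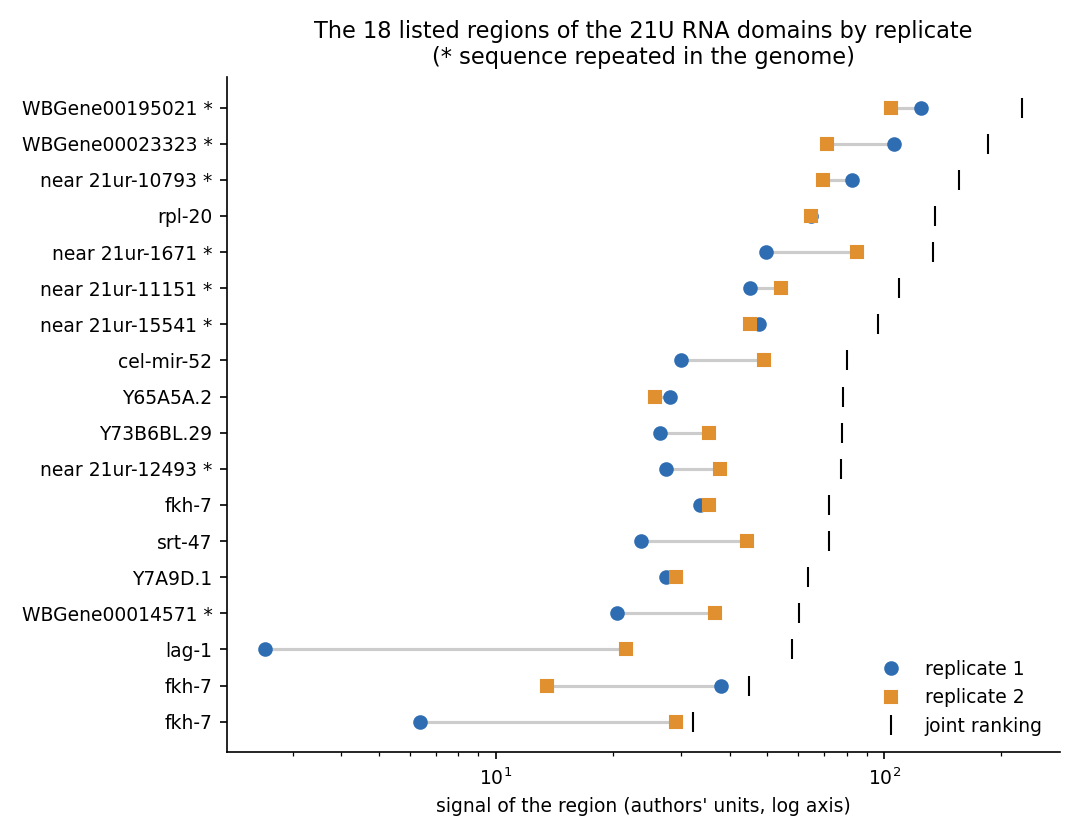
Each row is 1 of the 18 listed regions, named by a gene whose body or upstream 1000 bp holds the summit or else by the nearest 21ur gene, in order of joint signal. The log x axis gives the authors' signal in replicate 1 (circle), replicate 2 (square) and the joint ranking (bar); a star marks regions with more than 25% repeated sequence. The replicates lie near each other for most rows and far apart for lag-1 and the lower 2 regions at fkh-7.

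Repeated sequence was frequent among the strong regions. A region was counted as repeated when more than 25% of its words of 31 bases recur in the genome. This held for 728 members (13.9%; 8.38% in the left domain and 18.7% in the right), and for 10.6% of regions on the rest of IV. It held for 8 of the 18 listed members and for 6 of the 18 listed regions on the rest of IV, and for 7 of the 8 strongest members, against 8 of 8 on the rest of IV. Among repeated members 1.1% were listed and among the other members 0.223%, against 0.429% and 0.102% on the rest of IV. Whether reads were assigned among copies in a way that raises these values was not tested.

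The strongest member (chrIV:14780031-14780124) had a signal of 302, with 147.3 in replicate 1 and 192.9 in replicate 2. It lay 583 bp upstream of the noncoding RNA gene WBGene00202179 and 783 bp upstream of the small nucleolar RNA gene WBGene00220185. Its IDR was 6.51e-05, yet it was missing from the thresholded list. All of its words were repeated, with a median of 8 copies in the genome. Its neighbour (chrIV:14779308-14779603), also entirely repeated and not listed, had 71.78, with 6.558 in replicate 1 and 51.26 in replicate 2, the widest ratio between replicates among the 15 strongest members. The 101 bases around their summits are shown because the same sequence lies at both, and capitals mark the stretch of 64 bases they share.
strongest region (chrIV:14780006-14780106, plus strand): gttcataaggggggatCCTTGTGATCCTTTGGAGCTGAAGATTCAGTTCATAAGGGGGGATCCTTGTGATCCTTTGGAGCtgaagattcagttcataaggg
its neighbour (chrIV:14779406-14779506, plus strand): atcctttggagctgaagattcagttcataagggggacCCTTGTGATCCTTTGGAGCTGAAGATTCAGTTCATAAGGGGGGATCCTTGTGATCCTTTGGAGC

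A cluster of listed regions lay at the noncoding gene WBGene00195021 (K08F11.7 in RefSeq), the pseudogene WBGene00023323 (K08F11.6) and the ribosomal protein gene rpl-20 in the left domain. The region 155 bp upstream of WBGene00195021 (chrIV:4725542-4725671) had a signal of 225.9, with 124.5 in replicate 1 and 104.1 in replicate 2. That 69 bp upstream of WBGene00023323 (chrIV:4728014-4728087) had 185.1 (106.1 and 71.22), and one between genes, 9001 bp from 21ur-15541 (chrIV:4720559-4720854), had 96.33 (47.66 and 44.97). All 3 were repeated, at 92.0%, 79.5% and 56.4% of their words. In each the value of replicate 1 was the higher, unlike most listed members. The summit windows of the last 2 share 60 bases (capitals), which occur 5 times in the genome. Of the ranked regions 4 hold them, and the 2 listed ones are those in which the stretch was found. The first is given on the minus strand so that the shared bases read alike. Where a label here or further below names a 21ur gene, it is the 21ur gene nearest to that region. Other regions can lie closer to that gene, as the region at WBGene00023323 does to 21ur-15541, at 1676 bp.
WBGene00023323 promoter (chrIV:4727982-4728082, minus strand): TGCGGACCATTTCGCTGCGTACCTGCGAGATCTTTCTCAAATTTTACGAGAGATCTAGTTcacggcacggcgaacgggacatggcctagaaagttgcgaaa
region nearest to 21ur-15541 (chrIV:4720657-4720757, plus strand): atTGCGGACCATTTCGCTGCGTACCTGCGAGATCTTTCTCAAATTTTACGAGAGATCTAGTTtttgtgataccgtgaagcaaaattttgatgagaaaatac

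Another pair in the right domain shares sequence across more than 1 Mb. The region 5304 bp from 21ur-10793 (chrIV:16845423-16845718) had a signal of 156, with 82.32 in replicate 1 and 69.68 in replicate 2. The one 147 bp from 21ur-11151 (chrIV:15530572-15530867) had 109.1 (45.09 and 54.31). Both lay outside genes and their upstream 1000 bp. They have 72 words of 31 bases in common, and their summit windows share the 30 bases in capitals, which occur 7 times in the genome. Of the ranked regions 6 hold those bases and 4 of these are listed. A core of 14 bases inside it, AATTTGGCTGACTG on the other strand, is also in the window of WBGene00195021; it occurs 16 times in the genome, and 12 ranked regions hold it, 6 of them listed. These stretches were found in listed regions, so their counts there describe the choice.
region nearest to 21ur-10793 (chrIV:16845521-16845621, minus strand): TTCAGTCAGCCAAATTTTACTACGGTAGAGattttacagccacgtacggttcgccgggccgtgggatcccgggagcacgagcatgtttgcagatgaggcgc
region nearest to 21ur-11151 (chrIV:15530670-15530770, plus strand): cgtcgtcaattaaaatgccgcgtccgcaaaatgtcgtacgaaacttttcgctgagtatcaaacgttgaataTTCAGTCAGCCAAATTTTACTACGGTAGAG

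The 3 remaining repeated listed members lay in both domains. That 1293 bp from 21ur-1671 (chrIV:13922309-13922604) had a signal of 133.6, with 49.69 in replicate 1 and 84.83 in replicate 2. That 819 bp upstream of WBGene00014571, a transfer RNA gene, had 60.23 (20.49 and 36.54), and one 807 bp from 21ur-12493 had 77.36 (27.4 and 37.66). Replicate 2 was the higher in all 3. The windows of the first 2 share 24 bases, capitals below, that occur 705 times in the genome. They are in 117 ranked regions, of which 4 are listed, a count that describes the choice because the stretch was found in listed regions.
region nearest to 21ur-1671 (chrIV:13922407-13922507, plus strand): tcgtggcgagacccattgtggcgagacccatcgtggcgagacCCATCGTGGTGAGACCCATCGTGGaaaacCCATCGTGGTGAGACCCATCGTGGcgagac
WBGene00014571 promoter (chrIV:15188494-15188594, plus strand): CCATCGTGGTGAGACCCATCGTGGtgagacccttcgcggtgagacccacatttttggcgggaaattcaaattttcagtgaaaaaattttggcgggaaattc

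The other 10 listed members lay in sequence that is largely unique, and genes with known roles were among them. The region 289 bp upstream of rpl-20 (rpl-18A in RefSeq), which encodes a protein of the large ribosomal subunit, and 173 bp upstream of the divergent gene Y17G9B.5 (chrIV:4749919-4750214) had a signal of 135.2, with 64.71 in replicate 1 and 64.86 in replicate 2. That 82 bp upstream of cel-mir-52, a microRNA gene of the mir-51 family, and inside the noncoding gene WBGene00195705 (chrIV:14033778-14034073) had 80.28 (30 and 49.03). Both were in the conservative list as well. Among the 5 ribosomal protein genes of the domains rpl-20 alone had a listed region, and 4 had a member of any signal.

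At fkh-7, a forkhead transcription factor gene, the region in an intron (chrIV:5604357-5604652) had a signal of 72.2, with 33.42 in replicate 1 and 35.34 in replicate 2. A pair of overlapping regions in an untranslated exon, with summits within 3.13 kb of it, had 44.72 (38.06 and 13.56) and 32.1 (6.385 and 29.09), and each was high in a different replicate. The intron region was in the conservative list and the others were not. The windows of 101 bases around the summits of the 3 unique listed members that are also in the conservative list follow, with the summit base in capitals. GC makes up 46.5% of the window at rpl-20, 51.5% of that at cel-mir-52, a run of pyrimidines followed by triplet repeats, and 41.6% of that at fkh-7.
rpl-20 and Y17G9B.5 (chrIV:4750017-4750117, plus strand): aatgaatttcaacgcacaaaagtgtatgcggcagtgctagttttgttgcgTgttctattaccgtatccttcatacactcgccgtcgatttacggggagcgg
cel-mir-52 (chrIV:14033876-14033976, plus strand): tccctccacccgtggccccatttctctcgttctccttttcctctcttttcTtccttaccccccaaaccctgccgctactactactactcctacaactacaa
fkh-7 intron (chrIV:5604455-5604555, plus strand): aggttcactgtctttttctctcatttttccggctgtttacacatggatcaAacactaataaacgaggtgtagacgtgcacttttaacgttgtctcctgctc

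The other unique regions were in the joint list alone. That in an intron of lag-1, the transcription factor of Notch signalling, had 57.8, with 2.542 in replicate 1 and 21.67 in replicate 2, so the replicates differ widely. One in a coding exon of srt-47, a serpentine receptor gene, had 72.17 (23.69 and 44.24). One 135 bp upstream of Y7A9D.1 (spig-12 in RefSeq) and 52 bp upstream of the noncoding gene Y7A9D.66 had 63.57 (27.42 and 29.01). A region 3 bp upstream of Y73B6BL.29, annotated as a transfer RNA pseudouridine synthase gene, had 77.57 (26.45 and 35.3), and one in an intron of Y65A5A.2 had 78.03 (27.99 and 25.66). These last 2, in different domains and with no 31-base word in common, share 20 bases next to their summits. The window of Y73B6BL.29 below ends at the base before the gene and shows 16 of them in capitals; that of Y65A5A.2 is given on the minus strand.
Y73B6BL.29 promoter (chrIV:6321828-6321928, plus strand): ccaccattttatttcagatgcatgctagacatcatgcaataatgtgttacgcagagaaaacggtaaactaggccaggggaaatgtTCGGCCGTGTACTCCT
Y65A5A.2 intron (chrIV:16415739-16415839, minus strand): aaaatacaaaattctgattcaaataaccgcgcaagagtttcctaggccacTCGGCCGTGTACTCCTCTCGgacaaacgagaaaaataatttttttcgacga

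The 20 bases occur 12 times in the genome. They are in 7 ranked regions, of which 5 are listed, against 0.272% of the whole ranking. The stretch was found in listed regions, so this count describes the choice. Both windows also hold the letters ctaggcca, which contain CTAGGC and, on the other strand, GGCCTA, words picked from these same data in an earlier analysis. Within 50 bp of the summit either word was at 3 of the 18 listed members (16.7%) and 151 of all members (2.89%). On the rest of IV it was at 5 of 18 listed regions (27.8%) and 438 of all (3.32%). The share was higher among listed regions than among all regions in both. Because the words were picked from these same data, that is no independent evidence. The counts are also too small to set the domains apart.

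By gene class, 3586 members (68.7%) were at coding genes, meaning inside one or up to 1000 bp upstream, 362 (6.94%) at pseudogenes and 474 (9.08%) at other noncoding genes, and 793 (15.2%) at no gene of any kind. On the rest of IV the shares were 79.5%, 4.2%, 8.44% and 15.3%. Gene content differed too: 941 coding genes and 175 pseudogenes lay in the 6.2 Mb of the domains, and 2340 and 206 in the 11.29 Mb of the rest of IV. The shares were not corrected for it. Median signal was 18.59 at coding genes, 18.75 at pseudogenes, 19 at other noncoding genes and 18.49 at none, against 18.49, 17.58, 18.89 and 17.99 on the rest of IV. These classes held 9, 1, 4 and 5 listed members, with 1 region in 2 classes. On the rest of IV, where classes overlap too, they held 11, 2, 6 and 4 listed regions among 10503, 555, 1115 and 2015. Members at a pseudogene and no coding gene (n = 264) had a median of 19.09, and those at a coding gene and no pseudogene (n = 3488) 18.61, a ratio of 1.026. It was 1.036 in replicate 1 and 0.9741 in replicate 2, so the replicates differ in direction.

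Below WBGene00023323, the strongest regions at pseudogenes were close to the general level of strong members. That in an intron of WBGene00013114 had a signal of 54.59, with no match in replicate 1 and 32.55 in replicate 2. That 657 bp upstream of WBGene00011022, also in a coding exon of R05A10.6 (gtnt-37 in RefSeq), had 51.21 (22.07 and 28.64). The region 998 bp upstream of WBGene00013113 had 45.79 with no match in either replicate, and that 191 bp upstream of WBGene00012745, inside an intron of the chemoreceptor gene sra-30, had 45.58 (18.92 and 22.78). Their IDR lay between 0.0358 and 0.18, and none was listed.

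Gene families were counted by name prefix inside the domains. Chemoreceptor genes were the most numerous, 68 genes of which 48 had a member, 157 members with a median signal of 18.44 and 1 listed region, at srt-47. The 13 genes of the sperm list (prefixes msp, ssp, ssq and gsp) all had a member, 28 in all with a median of 12.62 and a highest value of 42.86. The 6 collagen genes had 19 members with a median of 24.93, the 9 lectin genes 24 with 19.53 and the 5 nuclear receptor genes 28 with 22.91. Families of F-box, chaperone and detoxification genes had medians of 19.26, 12.29 and 20.03 over 18, 4 and 18 members, and no histone gene lay in the domains. With 4 to 28 members in the small families, these medians carry wide error. Beside srt-47 and rpl-20 no gene of these families had a listed region, and at the 0.345% of all members listed such counts say nothing about a family.

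The genes that make and use 21U RNAs were looked up as well, from a list of 34 names, of which 32 were found in the gene models. At the promoter window, 1000 bp upstream to 200 bp downstream of the 5′ end, 29 had a ranked region and 0 a listed one, a count that allows a share of up to 10.3% of the 29. Of all 19973 coding genes 80.6% had a ranked region there, and 0.937% of those a listed one, so the count of 0 does not set the list apart. The highest ranked signal at each promoter had a median of 23.61, against 23.39 over all coding genes, and was 25.02 for the transcription genes, 19.1 for the processing genes and 27.34 for Argonautes and silencing genes. Among them the highest were wago-4, a germline Argonaute gene (50.85), erh-2, of the PETISCO complex (49.9), and attf-6 (42.9). Only pgl-1 and slfl-4 of the 32 lay in the domains. At pgl-1, which encodes a core P granule protein, 2 regions had signals of 29.83 (20.69 and 25.31 in replicates 1 and 2) and 21.24 (16.13 and 11.28). At slfl-4, of the complex that trims the 5′ end of 21U RNA precursors, the single region had 3.645 and no match in either replicate. The Piwi gene prg-2 is annotated as a pseudogene in RefSeq (chrIV:6526962-6529802) inside the left domain; its body and upstream 1000 bp held 8 regions, the strongest with 29.58 (22.48 and 12.45), and none was listed.

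The replicates agreed little in signal. Of the members 1715 (32.9%) had a match in the own lists of both replicates, and over these the signals had a Spearman correlation of 0.121, against 0.124 over 4893 regions on the rest of IV. Among regions at or above the 90th percentile of joint signal, a choice that uses both replicates, it was -0.0935 in the domains (n = 346) and -0.154 on the rest of IV (n = 990). The medians and densities above describe where ranked regions fall. Most of these regions had no match in the own lists of both replicates, which need not mean that they were absent there. The depth behind them is unknown because read counts were not analysed here.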

How the data were processed

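Chromatin immunoprecipitation with sequencing was done on 2 biological replicates of 1 group, and the authors deposited 8 lists of regions with ce11 coordinates. Of these, ranked and thresholded lists were used for each replicate, for both replicates jointly and for the replicates against each other (the conservative list). No aligner, peak caller or control is stated in the labels or file headers. The signal deposited by the authors is the peak caller's value for each region, on an unstated scale, with no scaling between replicates; it was used to describe and order regions. The −log10 of the global IDR, as deposited in the ranked lists, was turned back into an IDR. Depth is unknown, as reads were not counted. Numbering pairs nothing, since there is 1 group.

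A region of the joint ranking was assigned by its summit, taken 1-based. Replicate values came from the list that ranks the replicates against each other, where the matched region recurred exactly in that replicate's own list. Gene models and gene names were those of Ensembl release 115, sequences, second names where given and the prg-2 position those of RefSeq, both on WBcel235, the same assembly as ce11. Regions were described by medians and shares, with no test over regions. The ratios matched on GC content weight bins of 5 percentage points by the number of members. A region counted as repeated when over 25% of its 31-base words recur in the genome. Intervals are exact binomial ones at 95%; limits for a count of 0 take 3 counts. The functions for matched ratios and shares were checked on simulated data. Members, gene lists and alternatives were chosen with earlier results of these data known. The regions named are those in the joint or conservative list, the 15 strongest, and the 5 strongest at 21ur genes, pseudogenes, coding genes, other noncoding genes and the motif; the prg-2 lookup, the regions per Mb matched on GC content and the stretches shared between windows were added after the values were seen. Python 3.11.15, NumPy 2.4.6, pandas 2.3.3, SciPy 1.17.1 and matplotlib 3.10.9 were used.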

Additional observations from a re-analysis of the deposited data

How the results depend on the processing

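The ratio of median signal, domains over the rest of IV, was 0.9983. It was 0.9813 in the own list of replicate 1, 0.9836 for the left domain, 1.013 for the right domain and 1.013 for the right domain over the left arm of the chromosome. It was 0.9893 without repeated regions, 0.9847 in promoter windows and 1.028 outside them. With GC content matched it was 1.023. In settings added after the data were seen, the matched ratio was 1.02 in replicate 1 and 0.9999 in replicate 2. By domain it was 1.042 in the right and 1.005 in the left. Over all settings the ratio of median signal stood on either side of 1 and no setting moved it by 5%. The count of 18 listed members was 5 to 7 with either replicate left out, 9 in the conservative list and 46 at an IDR of 0.05 or below. The lists differ in size, with 321 regions in the joint, 182 in the conservative and 70 and 71 in those of the replicates. No share outside the domains is given for the IDR of 0.05. These counts therefore do not set the domains apart. The signal ratio at 21ur genes, 0.8899, was 0.924 to 0.9507 with either replicate left out, 0.9368 within 500 bp, 0.8198 inside the gene, 0.9239 in the left domain, 0.8638 in the right and 1.015, above 1, with GC content matched. The ratio at pseudogenes over coding genes, 1.026, was 0.9741 to 1.036 with either replicate left out, below 1 with replicate 1 left out, and 0.9964 with GC content matched. The share of members with CTGTTTCA, 13.68%, was 6.419% within 75 bp, 10% in the left domain and 16.81% in the right, and that with GTTTCA 40.74%. The ratio of regions per Mb, 0.7195, was 0.6976 to 0.7814 with either replicate left out and 0.8147 with GC content matched (0.8875 in replicate 1, 0.8087 in replicate 2). That at 21ur genes, 0.5602, was 0.514 to 0.585 with either replicate left out, and 0.8674 with GC content matched (0.9123 and 0.856). No paired analysis was possible because there is 1 group. The cause of these shifts was not tested. All values rest on 2 replicates of 1 strain at unknown depth, and over matched members the signals of the replicates had a Spearman correlation of only 0.121.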
